A study of Mus musculus with 52 samples.

Results

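The integrated stress response and the unfolded protein response were followed through 46 genes, chosen by name from the tables of mouse brain and cultured astrocytes, which list up to 55487 genes. RNA was sequenced from 52 libraries of C57BL/6 mice, 25 from brain and 27 from cultured astrocytes, glial cells that support neurons. The brain libraries come from 2 epilepsy models. For the KA-induced model a first cohort has 3 libraries with KA and 3 untreated, and another has 3 untreated, 4 with KA, 3 of Apoe knockout with KA and 3 labelled as A2aR knockdown with KA, called the second KA cohort here. The CNO-induced model has 3 libraries with CNO and 3 untreated. The cultures form 9 groups of 3 libraries. In 5 of them the astrocytes are wild type (untreated, palmitic acid, oleic acid, neuronal medium, and neuronal medium of Apoe knockout origin), and in 4 they lack Apoe (untreated, palmitic acid, oleic acid, neuronal medium). Apoe encodes apolipoprotein E, the main lipid carrier that astrocytes secrete. Not stated in the labels used here are ages, doses, treatment times, the brain region and whether the libraries of a group came from separate animals or cultures, so a p-value measures the spread between these libraries, which may be technical. The titles of the libraries given neuronal medium also carry KA, and 2 titles of the knockout (untreated replicate 3 and palmitic acid replicate 3) carry "mix", a word that is not explained.

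Both responses slow protein synthesis and rebuild a cell's capacity when it is stressed. Kinases that phosphorylate the initiation factor eIF2alpha, among them PERK (Eif2ak3) in the membrane of the endoplasmic reticulum (ER), favour translation of the transcription factor ATF4, which turns on amino acid synthesis and uptake, the factor CHOP (Ddit3) and feedback inhibitors. When unfolded protein builds up in the ER, the sensors IRE1 (Ern1), through splicing of Xbp1 mRNA, and ATF6 raise chaperones and the machinery that exports misfolded protein for degradation. Saturated fatty acids such as palmitic acid are known to set off ER stress in many cell types, while monounsaturated fatty acids such as oleic acid are known to be stored more readily in lipid droplets. The tables measure mRNA levels, so splicing of Xbp1, translation of Atf4 and phosphorylation were not measured.

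By textbook role 26 members form the amino acid and stress factor arm. They are 6 stress transcription factors, 7 stress-induced effectors and feedback genes, 2 secreted stress hormones, 7 enzymes of amino acid and one-carbon metabolism and 4 amino acid transporters. The ER arm holds 20 genes, 4 of ER stress sensing, 11 ER chaperones and folding factors and 5 of ER-associated degradation. The 4 of ER stress sensing are the sensors Eif2ak3, Ern1 and Atf6, with Xbp1, whose mRNA IRE1 splices. Known response elements of both arms were searched for in the 250 bases before the RefSeq start of transcription, which 40 of the 46 genes have in the RefSeq promoter table (build GRCm38.p6). The ER stress response element (ERSE, CCAAT and CCACG with 9 bases of any kind between them, either strand) stood in 0.113% of 32851 promoters of that length and before 8 members, Calr, Creld2, Derl3, Dnajc3, Hsp90b1, Hspa5, Pdia6 and Syvn1, all 8 of the ER arm. The related ERSE-II (ATTGG and CCACG with 1 base of any kind between them) stood in 0.0304% of promoters and before Herpud1. The C/EBP-ATF response element (CARE, TGATGNAA, where N is any base, either strand), the core of the sites that ATF4 binds with C/EBP partners, stood in 3.45% of promoters and before 8 members, of which Asns, Atf3, Chac1, Fgf21, Nupr1, Pck2 and Slc7a11 belong to the amino acid and stress factor arm and Herpud1 to the ER arm. The unfolded protein response element (UPRE, TGACGTGG) stood in 0.563% of promoters and before 0 members. A match describes letters in this window, and does not show that a factor binds there.

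The promoters shown are those of the members named in the most comparisons in each arm that hold a motif and under 30 bases of annotated exon, which leaves out Hspa5 and Nupr1. Capitals mark the ERSE in Creld2 (a secreted ER folding factor, chr15:88819396-88819645, plus strand) and Derl3 (Derlin-3, of the channel that exports misfolded protein, chr10:75893148-75893397, plus strand), the CARE and then the ERSE-II in Herpud1 (a scaffold of that degradation machinery, chr8:94386179-94386428, plus strand), and the CARE in Atf3 (a stress-induced transcription factor, chr1:191183334-191183583, minus strand), Chac1 (an enzyme that breaks down glutathione, chr2:119350992-119351241, plus strand) and Slc7a11 (the cystine importer, chr3:50443614-50443863, minus strand, with 2 such sites). All 6 are in GRCm38.p6, written 5′ to 3′ along the gene.
Creld2: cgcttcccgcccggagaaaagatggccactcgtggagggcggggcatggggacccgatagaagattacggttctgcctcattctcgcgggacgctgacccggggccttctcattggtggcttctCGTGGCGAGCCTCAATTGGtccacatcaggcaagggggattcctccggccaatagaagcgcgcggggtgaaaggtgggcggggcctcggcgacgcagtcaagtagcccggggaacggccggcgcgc
Derl3: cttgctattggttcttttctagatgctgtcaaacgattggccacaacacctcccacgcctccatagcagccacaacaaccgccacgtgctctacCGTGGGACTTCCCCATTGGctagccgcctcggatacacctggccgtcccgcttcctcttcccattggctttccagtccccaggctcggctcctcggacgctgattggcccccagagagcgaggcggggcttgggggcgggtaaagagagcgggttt
Herpud1: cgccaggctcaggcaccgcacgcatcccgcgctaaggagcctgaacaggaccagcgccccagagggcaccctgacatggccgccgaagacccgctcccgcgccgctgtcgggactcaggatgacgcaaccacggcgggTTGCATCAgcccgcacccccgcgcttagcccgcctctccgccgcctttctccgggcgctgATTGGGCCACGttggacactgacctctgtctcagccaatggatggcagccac
Atf3: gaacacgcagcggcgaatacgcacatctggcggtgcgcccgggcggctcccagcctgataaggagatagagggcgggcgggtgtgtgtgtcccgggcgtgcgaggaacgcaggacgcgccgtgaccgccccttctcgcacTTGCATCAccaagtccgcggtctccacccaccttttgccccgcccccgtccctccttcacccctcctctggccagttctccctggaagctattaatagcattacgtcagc
Chac1: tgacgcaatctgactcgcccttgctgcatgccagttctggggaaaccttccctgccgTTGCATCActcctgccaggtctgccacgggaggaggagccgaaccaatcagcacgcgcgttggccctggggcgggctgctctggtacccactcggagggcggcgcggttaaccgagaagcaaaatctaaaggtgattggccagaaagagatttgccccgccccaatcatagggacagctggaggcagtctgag
Slc7a11: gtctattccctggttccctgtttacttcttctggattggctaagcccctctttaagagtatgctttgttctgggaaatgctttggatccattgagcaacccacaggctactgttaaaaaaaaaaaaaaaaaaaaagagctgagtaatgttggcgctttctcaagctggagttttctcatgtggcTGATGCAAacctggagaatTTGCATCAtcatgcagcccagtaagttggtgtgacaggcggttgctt

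Apoe, the gene knocked out, was low in the libraries labelled knockout. It was at 5.36 to 118 TPM (a transcript level scaled for length and library size) in the 12 knockout astrocyte libraries against 2221 to 5024 in the 15 wild-type ones, and at 29.7 to 58.6 against 829.7 to 1467 in the knockout and wild-type brain libraries given KA. Adora2a, which encodes the adenosine receptor A2aR, was at 1.75, 2.15 and 1.89 TPM in the libraries labelled A2aR knockdown, 1.95, 2.9, 1.32 and 2.26 TPM in the KA group and 1.07, 2.35 and 0.958 TPM in the untreated one. These ranges overlap, so the target's mRNA does not bear out that label, and the group is called only by it. Libraries of the second KA cohort held 68760648 to 76643829 counts each, while the tables that give TPM alone leave their depth unknown. Untreated replicate 3 of the first KA cohort had 9.01% of its TPM from mitochondrial genes against 16.15% and 15.86% in the other two. Sex-linked genes also differed between groups of cultures and cohorts. Ddx3y, a Y-linked gene, was at 19.1, 14.9 and 18.8 TPM in untreated wild-type astrocytes, 1.27, 0.52 and 1.35 TPM with oleic acid and 3.62, 4.49 and 3.22 TPM with palmitic acid. In knockout astrocytes it was at 33.5, 32 and 31.3 TPM untreated, 15.16, 14.25 and 14.84 TPM with oleic acid and 1.86, 15.7 and 9.91 TPM with palmitic acid. In both genotypes the cultures behind those groups and the treatments therefore cannot be told apart. In the second KA cohort Xist was at 122, 145 and 145 TPM in the untreated libraries and at most 0.272 TPM in the KA libraries, so sex and KA cannot be told apart there.

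Nearly every member was higher with palmitic acid in wild-type astrocytes. Past an adjusted p of 0.05, 42 of the 46 members rose and 1 fell, with a median log2 difference of 1.71, while 59.8% of all 16161 genes tested passed in either direction (26.8% higher and 33.1% lower) with a median of -0.08. Differences in this and the other astrocyte comparisons are on the log2(TPM + 1) scale, given with their standard error (SE), and folds are ratios of mean TPM over 3 libraries against 3.

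All 6 stress transcription factors rose. Ddit3, which encodes CHOP, a factor that promotes cell death under lasting ER stress, was at 38.3, 44.5 and 36.1 TPM untreated and at 521, 507 and 538 TPM with palmitic acid. That is 13.2-fold (log2 difference 3.69 ± 0.08, adjusted p = 5.5e-19), with no overlap between the groups. Atf4 itself went from 114, 121 and 110.5 TPM to 837, 779 and 837 TPM. Its rise was 7.1-fold (log2 difference 2.82 ± 0.06, adjusted p = 2.44e-19). Atf3, whose promoter is printed above, went from 7.64, 9.4 and 7.1 to 136, 149 and 152 TPM, 18.1-fold. Cebpb, a C/EBP partner of ATF4, was more scattered, at 4.8, 4.84 and 6.53 TPM untreated and 52, 20.2 and 28.9 TPM with palmitic acid, and the lowest treated library was still above all untreated ones (log2 difference 2.35 ± 0.25, adjusted p = 4.4e-08). Atf5 and Nupr1 rose by 2.46-fold and 3.86-fold.

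Of the effectors and feedback genes, 6 of 7 rose. Trib3, a pseudokinase that inhibits ATF4 and AKT signalling, was at 3.41, 4.58 and 4.8 TPM untreated and 129.8, 121 and 127 TPM with palmitic acid, 29.6-fold (log2 difference 4.60 ± 0.17, adjusted p = 1.27e-15). Chac1 went from 5.71, 4.36 and 4.72 TPM to 133, 122 and 132 TPM, 26.1-fold (log2 difference 4.46 ± 0.13). Ppp1r15a, which encodes GADD34, the subunit that directs dephosphorylation of eIF2alpha and so closes the loop, rose 10.1-fold to 242, 241 and 263 TPM. Ddit4, which encodes the mTORC1 inhibitor REDD1, was the 1 member that fell, from 79.2, 82.4 and 76.3 TPM to 35, 33 and 37 TPM (log2 difference -1.16 ± 0.09, adjusted p = 6.85e-10), and its 3 treated libraries lay under all untreated ones. Of the secreted hormones, Gdf15 rose 7.64-fold and Fgf21 stayed between 0.57 and 1.48 TPM in both groups (log2 difference 0.27 ± 0.22, adjusted p = 0.3).

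Enzymes and transporters for amino acids rose in 11 of 11 cases. Asns, which encodes asparagine synthetase, went from 30.6, 30.5 and 28.5 TPM to 305, 302 and 325 TPM, 10.4-fold (log2 difference 3.34 ± 0.06, adjusted p = 4.56e-20). The mitochondrial one-carbon enzymes Shmt2 and Mthfd2 rose by 6.02-fold and 5.98-fold, and the serine synthesis enzymes Psat1 and Phgdh by 2.11-fold and 2.70-fold. Slc7a11 was at 1.59, 1.54 and 1.6 TPM untreated and 20, 26.8 and 25.5 TPM with palmitic acid, 15.3-fold (log2 difference 3.27 ± 0.27, adjusted p = 8.81e-10). Its partner chain Slc3a2, already at 548, 554 and 526 TPM untreated, rose by 1.62-fold.

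In the ER arm 18 of 20 members rose (median 1.01 on the log2 scale over 20 members, against 2.36 over the 26 of the other arm, of which 24 rose and 1 fell). The sensors rose, with log2 differences of 0.44 for Eif2ak3 (1.39-fold), 0.96 for Atf6 and 1.06 for Ern1. Xbp1, which acts downstream of the sensor IRE1, rose 4.19-fold. It was at 40.5, 39.7 and 42.5 TPM untreated and 159.8, 174 and 180.4 TPM treated (log2 difference 2.04 ± 0.06, adjusted p = 5.03e-17). Among the chaperones 9 of 11 rose. Hspa5, which encodes BiP, the main Hsp70 chaperone of the ER, was at 505, 475 and 478 TPM untreated and 1496, 1726 and 1761 TPM with palmitic acid, 3.42-fold (log2 difference 1.77 ± 0.12, adjusted p = 2.19e-11). Sdf2l1, a partner of BiP, rose 5.69-fold and Creld2 4.12-fold. Hsp90b1 and Dnajc3 did not pass, with log2 differences of 0.57 ± 0.26 and -0.52 ± 0.24 (adjusted p = 0.0664 and 0.0703). All 5 degradation genes rose, and Derl3 did so from 0.73, 0.9 and 0.93 TPM to 25.3, 38.1 and 40.4 TPM, 40.5-fold on a base under 1 TPM (log2 difference 4.24 ± 0.23, adjusted p = 7.57e-13).

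**Figure D1:**
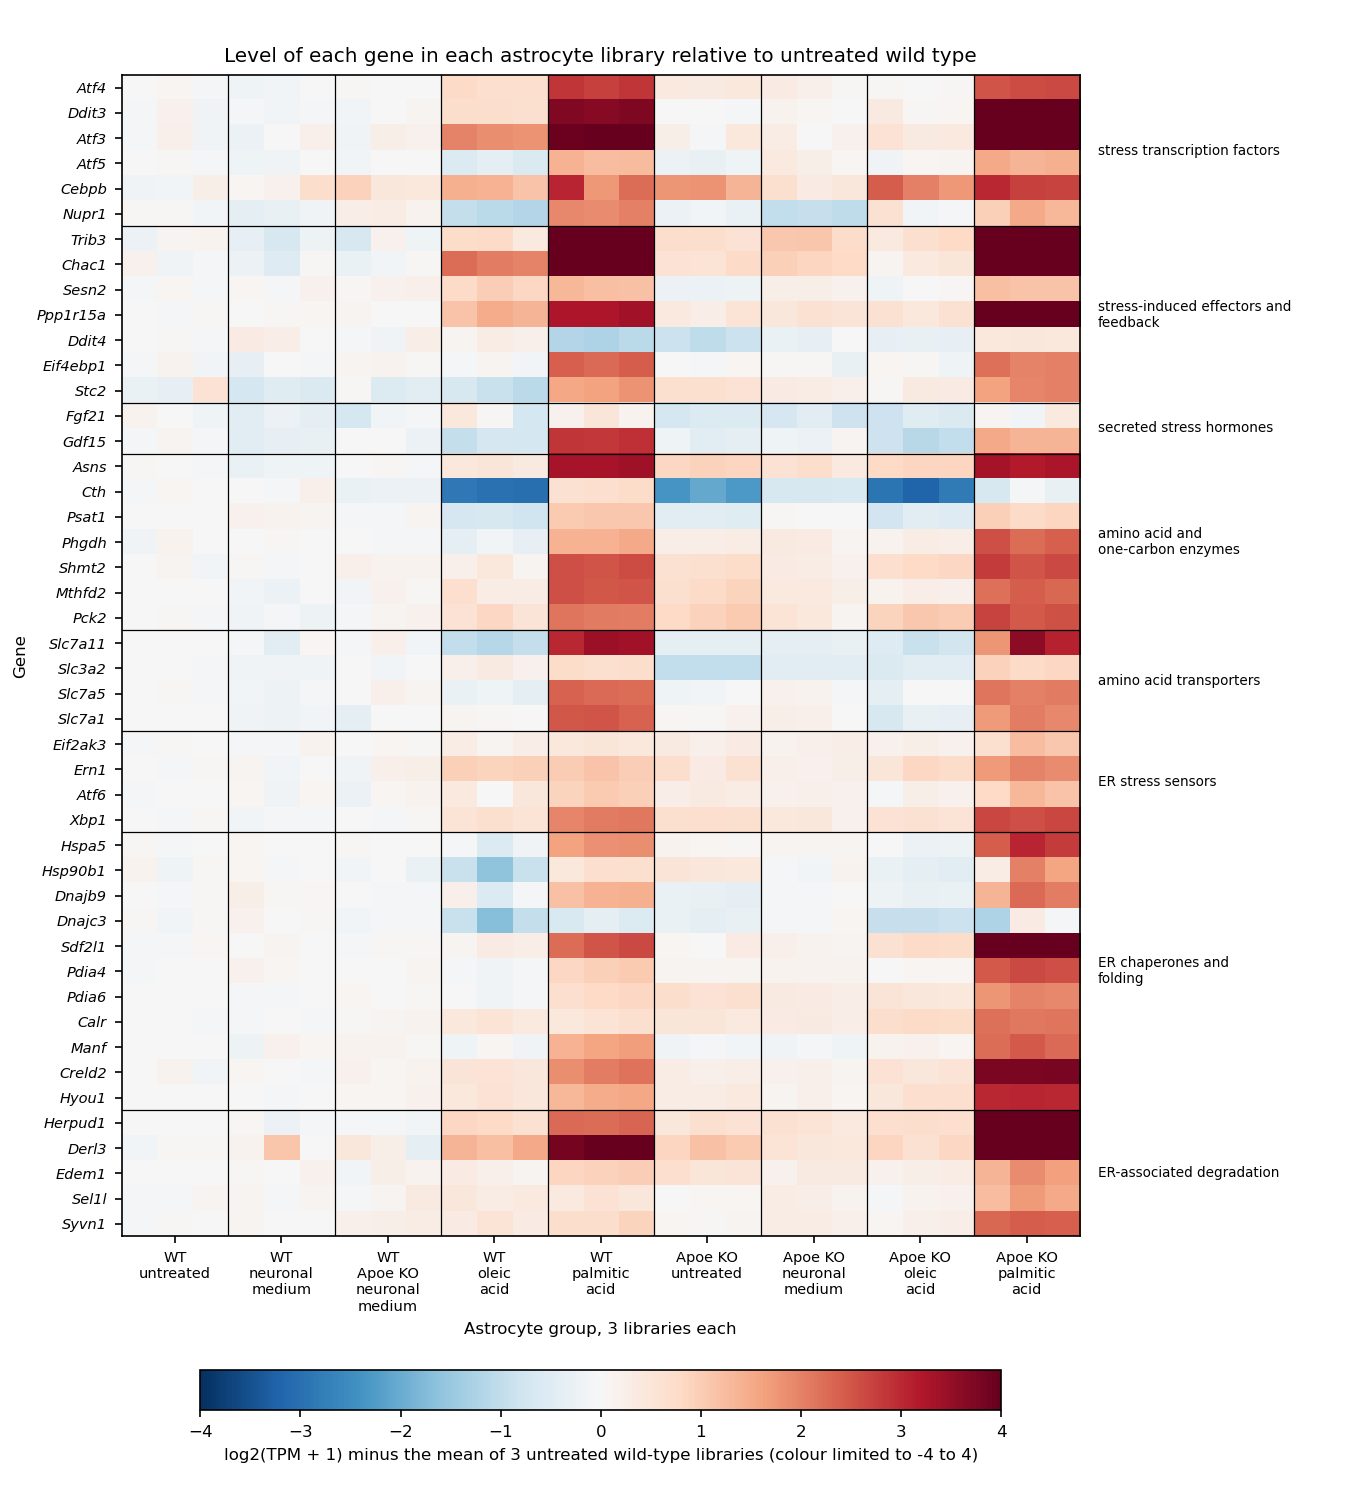
Each column is 1 of the 27 astrocyte libraries, grouped by genotype (WT, wild type; KO, knockout) and treatment, and each row is 1 of the 46 genes, ordered by role; colour gives log2(TPM + 1) minus the mean of the 3 untreated wild-type libraries, limited to -4 to 4. Both palmitic acid groups are red in nearly every row, while Cth is blue with oleic acid and in untreated knockout astrocytes and Ddit4 is blue in wild type with palmitic acid.

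Nearly every member was also higher with palmitic acid in astrocytes without Apoe, in groups whose Ddx3y level differed as given above. Of 46 members 45 rose and 0 fell, with a median log2 difference of 1.95, while 75.3% of all genes passed (19.9% higher and 55.4% lower) and the median of all genes was -0.47. With the libraries rescaled by the median ratio of their genes the median of all genes was -0.11 and 46 of 46 members rose. Ddit3 went from 39, 39.4 and 37 TPM to 870.4, 1034 and 962 TPM, 24.9-fold (log2 difference 4.60 ± 0.08, adjusted p = 6.58e-21). Trib3 was at 7.51, 7.42 and 6.78 TPM untreated and 235, 199 and 212 TPM treated, 29.8-fold, and Chac1 at 7.78, 7.7 and 9.05 and 209, 173 and 192 TPM, 23.4-fold. Atf3 rose 21.8-fold, Ppp1r15a 14.1-fold and Derl3 31.8-fold.

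Of the chaperones 10 of 11 rose in the knockout. Hspa5 went from 541, 510.5 and 505 TPM to 2609.5, 3985 and 3409 TPM, 6.43-fold (log2 difference 2.66 ± 0.12, adjusted p = 1.29e-14), and the lowest treated library was above every wild-type one. Sdf2l1 went from 29.7, 28.2 and 35 TPM to 587, 526 and 551 TPM, 17.9-fold (log2 difference 4.12 ± 0.09). Creld2 rose 11.6-fold to 817, 813 and 829 TPM and Herpud1 11.4-fold to 776, 721 and 754 TPM. Atf4 rose 4.63-fold (log2 difference 2.20 ± 0.06) and Xbp1 4.04-fold, with adjusted p = 3.31e-18 and 2.19e-17. Fgf21, the member at the lowest level in these cultures, was at 0.09, 0.21 and 0.2 TPM untreated and 0.89, 0.65 and 1.3 TPM treated. It reached 1 TPM only in libraries of wild type with oleic acid (1.37), wild type with palmitic acid (1.48) and knockout with palmitic acid (1.3). Fatty acid libraries alone thus brought it past the low-value filter. Its call here (adjusted p = 0.00474 by limma) rests partly on that selection and on values near the floor. Dnajc3, a co-chaperone of BiP that inhibits PERK, was the 1 member that did not pass, at 78.8, 74.4 and 77.3 TPM untreated and 40.2, 120.5 and 91.2 TPM treated.

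The first palmitic acid library of the knockout, which had the fewest genes above 0 of its group (18598 against 19878 and 19443), was low for some of these genes, with Hsp90b1 at 601, 2005 and 1469.9 TPM over the 3 libraries and Slc7a11 at 7.72, 29.6 and 20.9 TPM. Without it the log2 difference of Hsp90b1, the ER form of Hsp90, was 1.33 in place of 0.83 and that of Slc7a11 was 3.69 in place of 3.16. The call of Hsp90b1 was lost without the second palmitic acid library (log2 difference 0.46, adjusted p = 0.0856), and without both libraries titled mix (0.67, adjusted p = 0.0764).

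Cell identity markers moved with the same treatment. The summed level of 7 astrocyte markers was 1880 to 2117 TPM in untreated wild-type astrocytes, 599.8 to 740.9 TPM with palmitic acid, 429 to 441 TPM in untreated knockout astrocytes and 35.8 to 49.6 TPM in the knockout with palmitic acid, where all 7 were detected and Gfap was at 2.08 to 2.56 TPM and Slc1a2 at 0.32 to 1.6 TPM. The summed level of 6 mural cell and fibroblast markers was 4576 to 5019 TPM in untreated wild type, 1479 to 1709 TPM with palmitic acid, 3918 to 3988 TPM in the untreated knockout and 652 to 722 TPM in the knockout with palmitic acid. That of 6 microglial markers was 116.6 to 136.4, 221 to 258, 95.6 to 111 and 9.63 to 12.2 TPM in the same order. Fewer cells of a type and less RNA per cell cannot be told apart in such libraries, and the part these shifts play in the members' values was not tested. The summed level of 6 neuronal markers was 19.4 to 21.8, 38.7 to 44.9, 25.2 to 29.3 and 42.7 to 49.7 TPM in that order. Most of it was Tubb3, at 17.3 to 20.1, 37.3 to 42.6, 23.4 to 28 and 42.2 to 49.2 TPM, and the other 5 (Rbfox3, Slc17a7, Gad1, Snap25 and Syt1) were at most 1.13 TPM in these 4 groups. Signs of library quality moved with both fatty acids in both genotypes. Mitochondrial genes held 5.52% to 6.83% of the TPM in untreated wild type and 3.48% to 4.17% with palmitic acid, and 6.41% to 6.64% and 1.51% to 2.94% in the knockout. Genes above 0 numbered 21380 to 21504 and 20613 to 20867 in wild type, and 21646 to 22133 and 18598 to 19878 in the knockout. With oleic acid the mitochondrial share was 2.96% to 3.98% in wild type and 4.04% to 4.53% in the knockout. Genes above 0 numbered 20473 to 21207 and 21048 to 21640 with oleic acid, in the same order. The part of these signs in the members' values was not tested either.

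The response to palmitic acid was then compared between genotypes. The change with palmitic acid differed between knockout and wild type, by a test of the interaction, for 29 of 46 members. The signed log2 change was higher in the knockout for 20 and lower for 9, against 57.6% of all genes (14.3% higher, 43.2% lower). A deeper fall in the knockout counts as lower here, and a shallower fall as higher. In the ER arm 12 of 20 members had the higher signed change in the knockout and 0 the lower, with a median difference of 0.89. Of the other 26 members 8 had the higher signed change and 9 the lower, with a median of -0.09. With the same rescaling, which moved the median of all genes from -0.35 to 0.01, the split became 29 higher and 3 lower (ER arm 19 and 0, other arm 10 and 3). The direction in the amino acid and stress factor arm thus depends on the scaling, and that of the ER arm does not.

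The members with the larger rise in the knockout include chaperones and the degradation machinery. Sdf2l1 differed by 1.67 ± 0.12 on the log2 scale (adjusted p = 3.17e-10), Syvn1, which encodes the ubiquitin ligase HRD1, by 1.53 ± 0.10, the disulfide isomerase gene Pdia4 by 1.50 ± 0.07 and Creld2 by 1.50 ± 0.09. Pdia4 shows the pattern in its levels, at 216, 228 and 229 TPM and 399, 437 and 460.2 TPM without and with palmitic acid in wild type and at 242, 244 and 242 TPM and 1242, 1406 and 1337 TPM in the knockout. The untreated groups lay within 215.8 to 244 TPM, and the treated groups did not overlap. Hyou1, Herpud1 and Calr differed by 1.23, 1.23 and 1.16, Hspa5 by 0.89 ± 0.17 (adjusted p = 0.000113) and Ddit3 by 0.91 ± 0.12 (adjusted p = 1.22e-06), and rescaling kept the direction and the call of these 9 genes. Xbp1 did not pass (log2 difference -0.04, 95% interval -0.22 to 0.13), and with rescaling it was 0.42 (adjusted p = 0.0153).

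All 9 members with the smaller rise in the knockout belong to the amino acid and stress factor arm. Asns differed by -0.96 ± 0.09 (adjusted p = 1.18e-08), Mthfd2 by -0.99 ± 0.13 and Gdf15 by -1.14 ± 0.14, and these 3 stayed past the threshold with rescaling, at -0.49, -0.52 and -0.68. Asns was at 54.1, 58 and 54.5 TPM untreated and 308, 278 and 293 TPM treated in the knockout, above wild type without treatment and overlapping it with palmitic acid. Atf4 differed by -0.61 ± 0.08 (adjusted p = 2.96e-06), and rescaling left -0.15 (adjusted p = 0.287). The calls of Cebpb, Nupr1, Shmt2, Pck2 and Slc7a1 were also lost with rescaling.

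Ddit4, Cth and Slc3a2 were lower in the knockout before treatment. Ddit4 was at 43.6, 39 and 43.2 TPM in the untreated knockout and 108, 108 and 107 TPM with palmitic acid, a rise of 1.34 ± 0.09 on the log2 scale where wild type fell, and the interaction was 2.50 ± 0.13 (adjusted p = 1.57e-12). Cth, the transsulfuration enzyme that makes cysteine, was at 6.04, 7.65 and 6.27 TPM in the untreated knockout and 22.1, 33.8 and 28.1 TPM with palmitic acid, below the 53.8, 55.9 and 58.9 TPM of wild type, although its rise was larger by 1.24 ± 0.16. Slc3a2 was at 275, 274 and 274 TPM untreated and 1026, 923 and 966 TPM treated in the knockout, and its rise was larger by 1.12 ± 0.07.

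**Figure D2:**
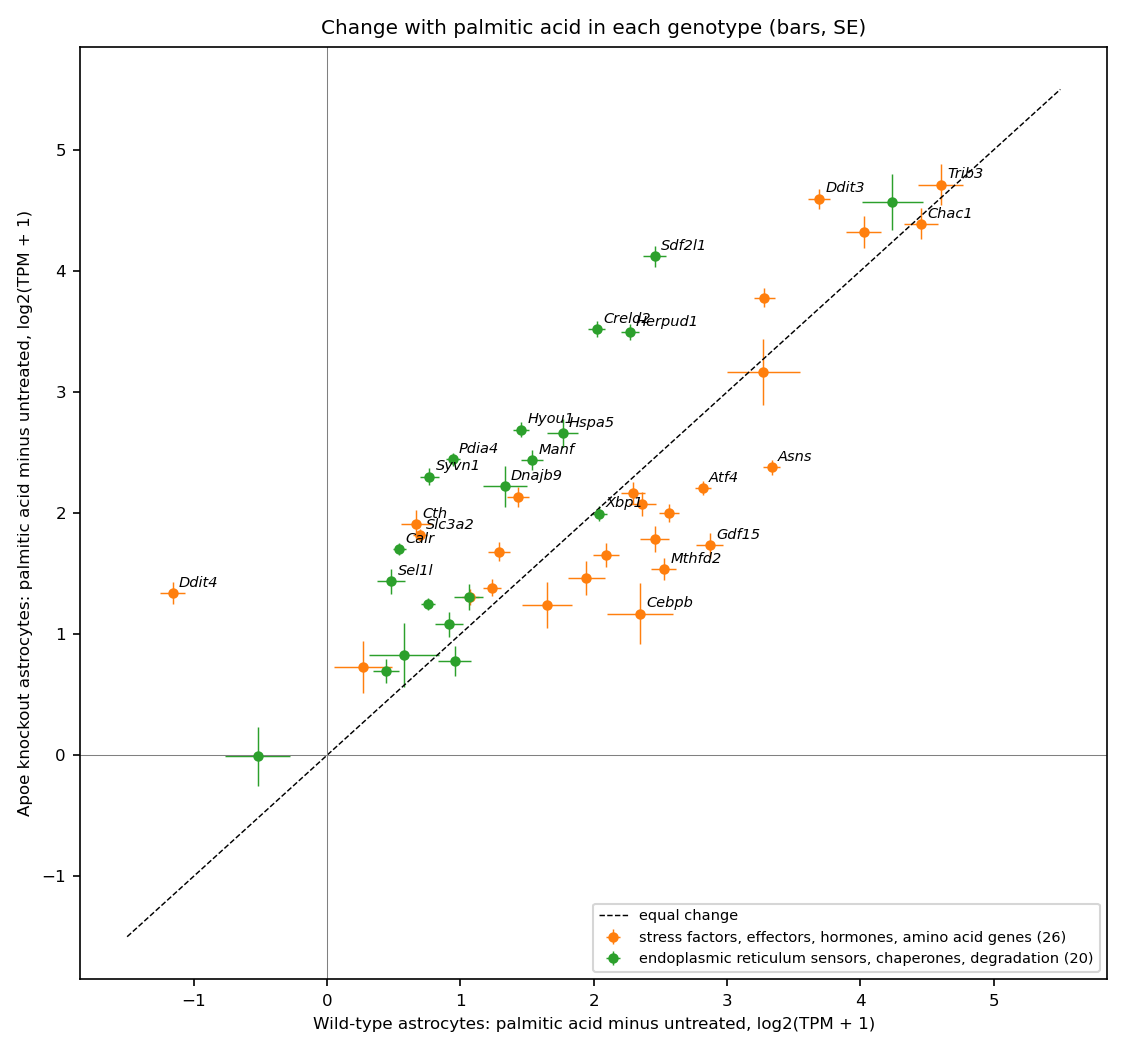
Each point is 1 gene, with its change with palmitic acid in wild-type astrocytes on the x axis and in Apoe knockout astrocytes on the y axis, both in log2(TPM + 1), bars showing SE; green marks the 20 genes of the ER arm, orange the 26 others, and the dashed line equal change. Sdf2l1, Creld2, Herpud1, Syvn1 and Pdia4 lie above the line by 1.23 to 1.67, Asns, Mthfd2, Gdf15 and Cebpb below it by 0.96 to 1.18, and Ddit4 is at -1.16 in wild type and 1.34 in the knockout.

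Other genes of the same pathways, kept in 5 lists, are read beside the 59.8% of all genes that passed with palmitic acid in wild type (26.8% higher and 33.1% lower) and the 75.3% in the knockout (19.9% higher and 55.4% lower), and a share passing near these says nothing about a list. The list of further targets of ATF4 holds genes of amino acid and one-carbon metabolism, and also Cebpg, Jdp2, Vldlr, Klhl24, Sqstm1, Txnip and Bbc3. Of 21 tested genes of this list, 16 were higher and 1 lower in wild type (median log2 difference 1.58). In the knockout 15 were higher and 4 lower (median 1.35). The autophagy receptor gene Sqstm1 rose by 2.27 and 3.07 in those genotypes and the proline synthesis gene Aldh18a1 by 2.45 in wild type. The list of further ER chaperones and folding enzymes was drawn up with Bet1, Crebrf and Tmem50b as well. Of 20 of its genes 7 were higher and 8 lower in wild type (median -0.11), and 11 higher and 5 lower in the knockout (median 0.25). Of 23 further genes of degradation and the translocon, 13 were higher and 4 lower in wild type and 15 higher and 7 lower in the knockout, with Derl1 up by 0.68 and 1.75. The list of further sensors and membrane transcription factors also holds Mbtps1, Mbtps2, Traf2, Bax, Bak1 and Wfs1. It had 6 of 10 higher and 1 lower in wild type and 8 higher and 1 lower in the knockout. The list of 14 genes with the other eIF2alpha kinases and subunits of eIF2 and eIF2B also holds Ppp1r15b, Impact and Qrich1. Of these 14 genes 9 were higher and 2 lower in wild type and 4 higher and 6 lower in the knockout.

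With oleic acid members moved in both directions. In wild type 24 of 46 members rose and 11 fell, with a median log2 difference of 0.24, against 59.8% of all genes (31.2% higher and 28.6% lower) and a median of 0.00. Chac1 went from 5.71, 4.36 and 4.72 TPM to 26.9, 23.5 and 22.3 TPM, 4.92-fold (log2 difference 2.09 ± 0.13, adjusted p = 1.52e-11). Atf3 rose to 34.2, 31.4 and 30.1 TPM, 3.96-fold (log2 difference 1.87 ± 0.13). The groups did not overlap for either gene. Derl3, Cebpb and Ppp1r15a rose by 4.43-fold, 2.77-fold and 2.57-fold, and Ern1 and Sesn2 by 2.04-fold and 1.85-fold.

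Atf4 rose to 196, 184 and 185 TPM with oleic acid, 1.64-fold (log2 difference 0.71 ± 0.06, adjusted p = 2.16e-09), Ddit3 by 1.61-fold (log2 difference 0.68 ± 0.08, adjusted p = 4.38e-07) and Xbp1 by 1.5-fold (adjusted p = 6.12e-08). Hspa5 did not pass, at 466, 335 and 437 TPM (log2 difference -0.25 ± 0.12, adjusted p = 0.0728). Of the members that fell, Cth was at 3.93, 3.58 and 3.49 TPM, 0.105 times its untreated level (log2 difference -2.95 ± 0.12, adjusted p = 1.3e-14). Dnajc3, Hsp90b1, Nupr1 and Slc7a11 fell with log2 differences of -1.19, -1.13, -1.06 and -1.03. The second oleic acid library was low for Dnajc3 (51.2, 28.3 and 48.4 TPM in replicate order) and Hsp90b1 (264, 161 and 268 TPM). It also had the fewest genes above 0 of its group (20473 against 21207 and 21060). Signs of library quality moved with oleic acid, as given above, and their part was not tested. In the same libraries the astrocyte markers summed to 996 to 1023 TPM, below the untreated range given above, and the microglial markers to 224 to 255 TPM, above it.

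The fatty acids were then compared with each other. Palmitic acid, a saturated fatty acid, and oleic acid, a longer one with a double bond, were given at doses and times that are not stated, so the comparison is between these treatments as applied. With oleic minus palmitic acid tested in both genotypes (2 pairs, adjusted together, with 41 members past the threshold in wild type and 46 in the knockout), 40 members were lower with oleic acid in wild type and 1, Ddit4, was higher, against 58.2% of all genes (25.8% lower and 32.4% higher), and the median log2 difference was -1.70. The widest gaps were in Slc7a11 (-4.30), Trib3 (-3.98), Gdf15 (-3.64), Cth (-3.62) and Ddit3 (-3.02), and Atf4, Hspa5 and Xbp1 differed by -2.11, -2.02 and -1.47. A difference was not detected for 5 members, with 95% intervals of -0.18 to 0.03 for Calr, -0.33 to 0.11 for Sel1l, -0.36 to 0.09 for Ern1, -0.42 to -0.01 for Eif2ak3 and -0.79 to 0.11 for Fgf21. In the knockout all 46 members were lower with oleic than with palmitic acid (median -2.13), against 69.7% of all genes (53.7% higher and 16% lower), from -0.59 for Dnajc3 to -4.84 for Derl3, with Atf4 at -2.56, Ddit3 at -4.40, Hspa5 at -2.90 and Xbp1 at -2.05.

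**Figure D3:**
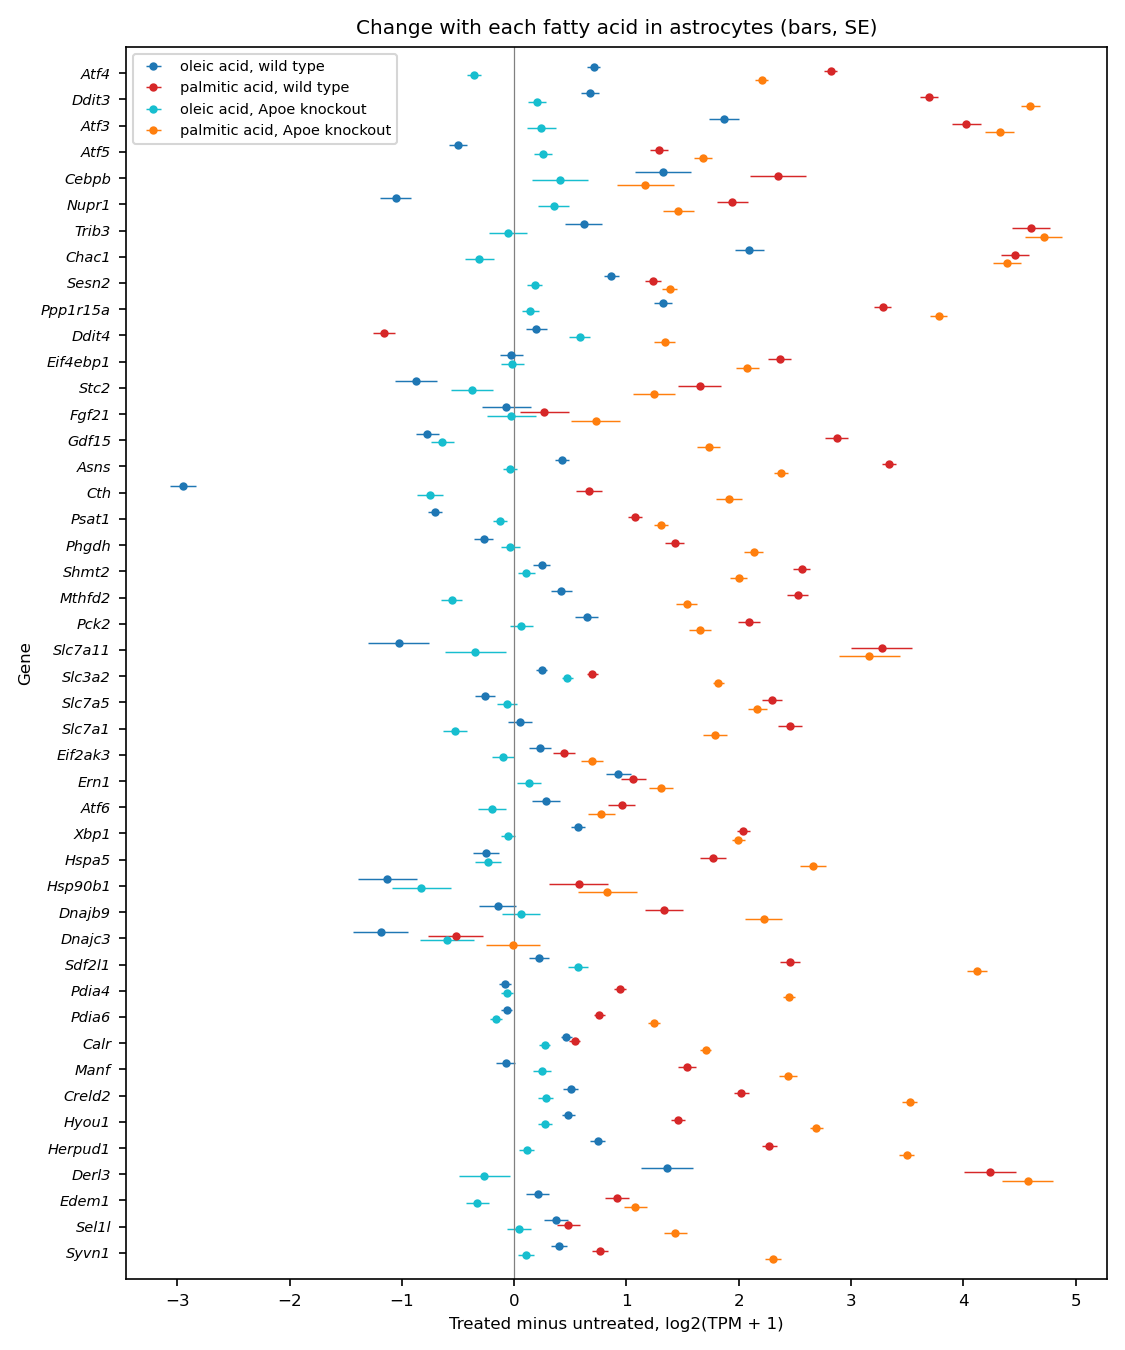
Each row is 1 gene and each point its log2(TPM + 1) difference from untreated astrocytes of the same genotype, with SE, for oleic acid (blue, wild type; cyan, knockout) and palmitic acid (red, wild type; orange, knockout). Palmitic acid points reach 4.60 and 4.71 for Trib3, while oleic acid points stay between -2.95 and 2.09.

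Knockout astrocytes given oleic acid had 10 of 46 members higher and 8 lower, with a median log2 difference near 0 (-0.03 in the amino acid and stress factor arm and -0.01 in the ER arm), against 41.8% of all genes (21.7% higher and 20.1% lower). Chac1 stayed at 5.34, 6.76 and 7.18 TPM (log2 difference -0.31 ± 0.13, adjusted p = 0.057) and Atf3 at 12.4, 10.5 and 10.7 TPM (adjusted p = 0.142). Atf4 fell by 0.36 (adjusted p = 8.66e-05), where wild type rose by 0.71. Ddit3, Hspa5 and Xbp1 did not pass, with log2 differences of 0.20, -0.23 and -0.06. The largest changes past the threshold were in Hsp90b1 (-0.83), Cth (-0.75), Gdf15 (-0.64), Ddit4 (0.58) and Sdf2l1 (0.57).

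Tested directly, the change with oleic acid differed between genotypes for 27 of 46 members. The signed log2 change was higher in the knockout for 8 and lower for 19, against 29.6% of all genes (13.8% higher and 15.8% lower). Chac1 differed by -2.40 ± 0.18 (adjusted p = 1.31e-09), Atf3 by -1.63 ± 0.18, Derl3 by -1.63 ± 0.32, Ppp1r15a by -1.18 ± 0.11, Atf4 by -1.06 ± 0.08 (adjusted p = 2.44e-09) and Xbp1 by -0.63 ± 0.09 (adjusted p = 7.02e-06). Ddit3 differed by -0.47 ± 0.12 (adjusted p = 0.00326) and Hspa5 by 0.01 (95% interval -0.33 to 0.36). Cth differed by 2.20 ± 0.16 the other way, as it fell less in the knockout than in wild type. It was at 3.76, 2.88 and 4.06 TPM in the knockout with oleic acid, overlapping the levels in wild type with oleic acid. Microglial markers summed to 301 to 374 TPM in the knockout with oleic acid against 95.6 to 111 TPM untreated, and astrocyte markers to 424 to 431 TPM against 429 to 441 TPM.

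Several members differed between genotypes before any treatment. Sex-linked genes differed with them, so the make-up of the cultures and the genotype cannot be told apart here or in the interactions. Xist was at 36.8, 30.7 and 36.3 TPM in untreated wild type and 3.81, 2.79 and 2.93 TPM in the untreated knockout, and Ddx3y at 19.1, 14.9 and 18.8 TPM and 33.5, 32 and 31.3 TPM. In untreated knockout against untreated wild-type astrocytes 22 members were higher and 8 lower, against 44.9% of all genes (23.9% higher and 21.1% lower), with a median log2 difference of 0.22 beside 0.05 for all genes. Cth was lowest relative to wild type, at 6.04, 7.65 and 6.27 TPM against 33.9, 36.7 and 34.3 TPM, 0.19 times the wild-type level (log2 difference -2.24 ± 0.12, adjusted p = 6.14e-13). Slc3a2 was at 275, 274 and 274 TPM against 548, 554 and 526 TPM and Ddit4 at 43.6, 39 and 43.2 TPM against 79.2, 82.4 and 76.3 TPM, and neither pair of groups overlapped. Cebpb was 3.54-fold higher (log2 difference 1.65 ± 0.25), Derl3 3.27-fold, Pck2 1.94-fold and Asns 1.86-fold. Trib3, Mthfd2, Shmt2 and Chac1 were higher by 1.70-fold, 1.74-fold, 1.58-fold and 1.66-fold. Atf4 and Xbp1 were higher by 1.31-fold and 1.58-fold (adjusted p = 1.1e-05 and 9.74e-09), while Ddit3 and Hspa5 did not pass (adjusted p = 0.745 and 0.548). The sum of astrocyte markers, given above, was lower in the untreated knockout, and the part of that difference was not tested.

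**Figure D4:**
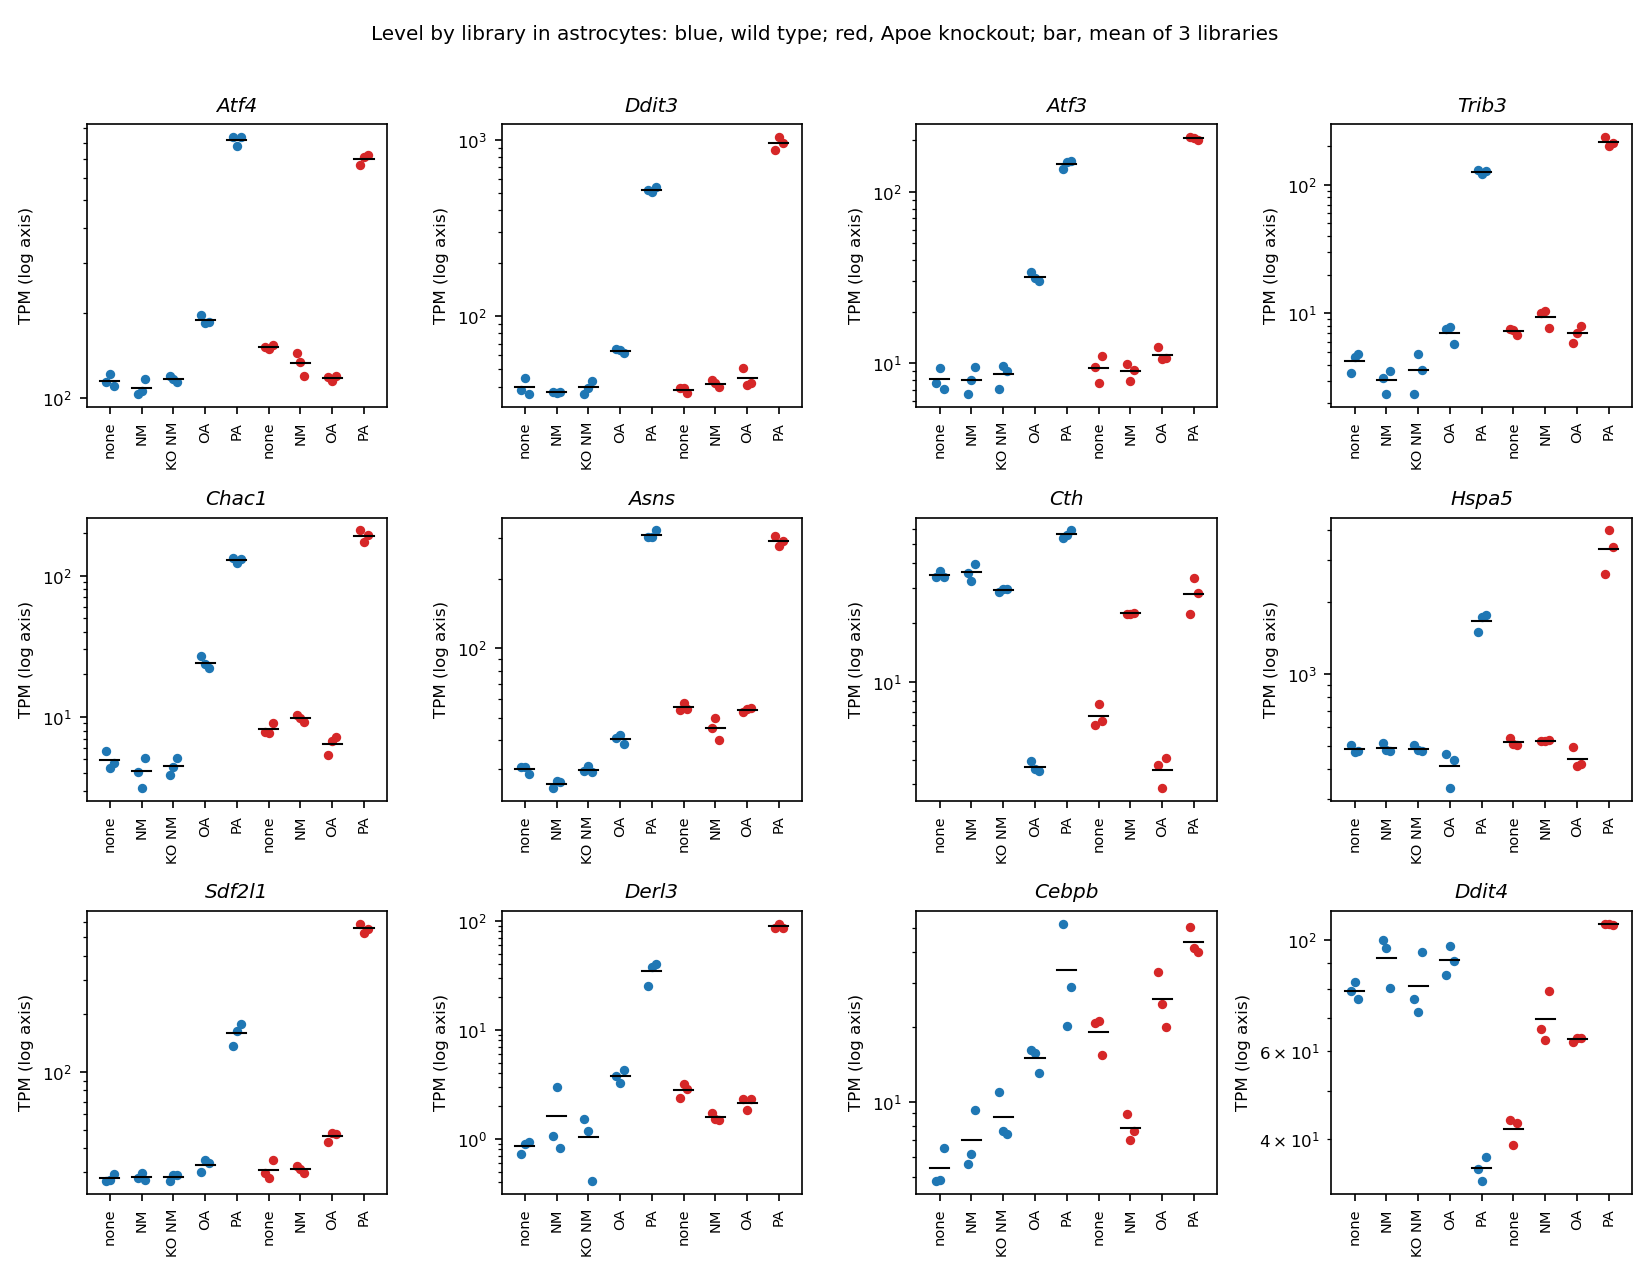
TPM of 12 genes in each astrocyte library, on log axes, by group: none, untreated; NM, neuronal medium; KO NM, medium from Apoe knockout neurons; OA, oleic acid; PA, palmitic acid. Dots are libraries, bars the mean of 3, blue wild type and red Apoe knockout; Ddit3, Trib3 and Chac1 are highest with palmitic acid in both genotypes, and Cth is low with oleic acid and in the untreated knockout.

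No member passed with medium from neurons in wild-type astrocytes. Past the threshold there were 0 of 46 members with neuronal medium against untreated (0.0371% of all genes by limma, 0.0186% higher and 0.0186% lower). At an unadjusted p under 0.05 by limma there were 7 members, beside 1031 of all 16161 genes. With medium from Apoe knockout neurons against medium from neurons 0 of 46 passed (1.42% of all genes, 0.965% higher and 0.452% lower). There 13 members and 2080 of the 16161 genes had an unadjusted p under 0.05. In the first of these Atf4, Ddit3, Hspa5 and Xbp1 had 95% intervals of -0.21 to 0.04, -0.26 to 0.08, -0.23 to 0.26 and -0.21 to 0.04 on the log2 scale. Those for the knockout medium were -0.02 to 0.23, -0.08 to 0.26, -0.25 to 0.24 and -0.04 to 0.20. Nupr1, a stress-induced chromatin protein, came nearest with the knockout medium, at 194, 199 and 177 TPM against 123, 131 and 146 TPM (adjusted p = 0.078), and its groups did not overlap. With only the groups compared in the fit it passed (log2 difference 0.51, adjusted p = 0.0228).

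Knockout astrocytes given neuronal medium had 6 members higher and 12 lower against untreated knockout, beside 31.2% of all genes (18.7% higher and 12.6% lower). Cth rose from 6.04, 7.65 and 6.27 TPM to 22.2, 22.1 and 22.4 TPM (log2 difference 1.61 ± 0.12, adjusted p = 4.72e-10), and Ddit4 and Slc3a2 rose by 0.71 and 0.54. Cebpb fell from 20.8, 21 and 15.4 TPM to 8.96, 7.03 and 7.59 TPM (log2 difference -1.17 ± 0.25, adjusted p = 0.000845), and Nupr1, Pck2 and Mthfd2 changed by -0.78, -0.55 and -0.42. This comparison and that of the untreated genotypes share the untreated knockout libraries. Atf4 and Xbp1 changed by -0.19 and -0.30 (adjusted p = 0.0152 and 0.00051), and Ddit3 and Hspa5 did not pass (adjusted p = 0.35 and 0.925). Astrocyte markers summed to 996.5 to 1092 TPM with the medium, above the 429 to 441 TPM of the untreated knockout. The change with medium differed between genotypes for 13 members by the interaction test. The signed log2 change was higher in the knockout for 8 and lower for 5, against 18.5% of all genes (11.6% higher and 6.95% lower). Cth (1.57 ± 0.16) and Cebpb (-1.48 ± 0.35) led, whereas Atf4, Ddit3, Hspa5 and Xbp1 did not pass, with adjusted p = 0.444, 0.273, 0.989 and 0.085.

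Few members passed in brain. With CNO, 2 of 43 tested members rose and 0 fell, against 3.7% of all 15453 genes (3.46% higher and 0.233% lower). Atf3 was at 4.39, 8.68 and 7.35 TPM with CNO and 1.11, 0.93 and 0.77 TPM untreated, 7.27-fold in means (log2 difference 1.97 ± 0.24, adjusted p = 0.00617 by limma). Only 1 untreated library reached 1 TPM, so Atf3 met the filter of 1 TPM in 3 libraries through the CNO libraries, where it was high. Its call rests partly on that selection. Nupr1 was at 35.2, 60.5 and 69.6 TPM and 10.2, 17.4 and 11.5 TPM, 4.23-fold (log2 difference 1.98 ± 0.28, adjusted p = 0.0109), and neither gene's groups overlapped. The call of Nupr1 was lost without the filter on low values (adjusted p = 0.0578) and without untreated replicate 3 (adjusted p = 0.0518), with log2 differences of 1.98 and 1.91. Trib3, Fgf21 and Gdf15 did not reach 1 TPM in 3 libraries and were not tested in either this set or the first KA cohort.

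Atf4, Ddit3, Hspa5 and Xbp1 did not pass with CNO. Atf4 was at 111, 131 and 151 TPM with CNO and 148, 146 and 148 TPM untreated (log2 difference -0.17 ± 0.11, adjusted p = 0.523), and the 95% intervals of Ddit3, Hspa5 and Xbp1 were 0.10 to 0.50, -0.17 to 0.61 and -0.15 to 0.23, with adjusted p = 0.117, 0.594 and 0.878. The 5 pathway lists hold 22, 11, 23, 22 and 14 genes, and 2 of these genes passed, beside the 3.7% of all genes. Such a count says nothing about the lists. The 2 were the mitochondrial one-carbon gene Aldh1l2 (1.44 ± 0.18, adjusted p = 0.00662 by limma) and the prolyl isomerase gene Ppib (0.45 ± 0.09, adjusted p = 0.0404), both higher. Astrocyte markers summed to 3202 to 3610 TPM with CNO against 1095 to 1224 TPM untreated, and microglial markers to 477 to 588 TPM against 202 to 215 TPM, and their part in the rise of Atf3 and Nupr1 was not tested.

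With KA in the first cohort no member passed by limma. There were 0 of 43 tested members past the threshold with limma, against 0.183% of all 15331 genes (0.157% higher and 0.0261% lower). An unadjusted p under 0.05 was found for 3 members and for 2069 of the 15331 genes. The median log2 difference of members was 0.18 beside 0.25 for all genes, and rescaling took that of all genes to 0.00. Nupr1 was at 24.4, 27.8 and 16.8 TPM with KA and 9.44, 11.2 and 14.7 TPM untreated (log2 difference 0.90 ± 0.26, adjusted p = 0.201). These groups did not overlap. Atf3 was at 5.57, 7.08 and 1.6 TPM and 1.65, 2.23 and 0.77 TPM, so KA replicate 3 lay within the untreated range. Untreated replicate 3 stood apart in its mitochondrial share, given above. The lowest correlation with the own group was 0.8876, 0.8883 and 0.8876 over the untreated replicates, against 0.9687 to 0.9755 in the KA libraries. The deviation of each untreated library from the others of its group followed transcript length. Spearman correlations were 0.395, 0.391 and -0.417 over the replicates, with the opposite sign in replicate 3. Over the untreated replicates Atf6 was at 25.1, 28.2 and 8.04 TPM and Ddit3 at 52.1, 44.3 and 77.8 TPM. Such values widen the spread used by the test. The count stayed at 0 in every refit without 1 library. Astrocyte markers summed to 1691 to 3209 TPM with KA against 699 to 1297 TPM untreated. Atf4, Ddit3, Hspa5 and Xbp1 had 95% intervals of -0.48 to 0.10, -0.74 to 0.33, -0.20 to 0.40 and -0.08 to 0.69.

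The second KA cohort had 0 of 45 tested members past the threshold with edgeR, against 0.0558% of all 23318 genes (0.0257% higher and 0.03% lower). An unadjusted p under 0.05 was found for 4 members and for 1566 of the 23318 genes. The DESeq2 Wald test called 1 member, Ddit4, lower with KA (log2 difference -0.54, adjusted p = 0.0308). Ddit4 was at 75.8, 65.2, 87.5 and 58.2 TPM with KA and 103, 101 and 113 TPM untreated (edgeR log2 difference -0.54 ± 0.13, adjusted p = 0.373). All 4 KA libraries lay below all 3 untreated ones. Atf4, Ddit3, Hspa5 and Xbp1 had 95% intervals of -0.31 to 0.49, -0.31 to 0.21, -0.74 to 0.28 and -0.51 to 0.21, and Nupr1 was at 8.84, 8.28, 14.4 and 11.9 TPM and 5.06, 6.48 and 11.4 TPM, which overlap.

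Apoe knockout with KA and the libraries labelled A2aR knockdown with KA, each against KA, also had 0 of 45 members past the threshold with edgeR. For Apoe knockout with KA against KA, 0.112% of all genes passed the adjusted threshold (0.03% higher and 0.0815% lower). An unadjusted p under 0.05 by edgeR was found for 6 members and for 2175 of all 23318 genes. The DESeq2 Wald test called 3 members, all higher, Pdia6, Slc7a11 and Hsp90b1 (adjusted p = 0.00223, 0.0165 and 0.041). By edgeR 0 of these passed. Slc7a11 was at 14.9, 11.7 and 12.7 TPM in the knockout and 7.31, 6, 10.1 and 9.77 TPM with KA alone (log2 difference 0.67 ± 0.16, adjusted p = 0.213), and Pdia6, an ER disulfide isomerase, at 102, 112 and 109 TPM and 84.3, 77.1, 82.5 and 86.1 TPM (log2 difference 0.42 ± 0.09, adjusted p = 0.134). Neither pair of groups overlapped. For the libraries labelled A2aR knockdown 0.0386% of all genes passed the adjusted threshold (0.0172% higher and 0.0214% lower). An unadjusted p under 0.05 by edgeR was found for 2 members and for 2156 of all 23318 genes. The DESeq2 Wald test called 0 members. The 95% intervals of Atf4, Ddit3, Hspa5 and Xbp1 were -0.27 to 0.53, -0.15 to 0.37, -0.26 to 0.76 and -0.24 to 0.48 for the Apoe knockout and -0.15 to 0.64, -0.14 to 0.38, -0.14 to 0.88 and -0.07 to 0.64 for the libraries labelled knockdown. Both comparisons use the same 4 KA libraries.

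**Figure D5:**
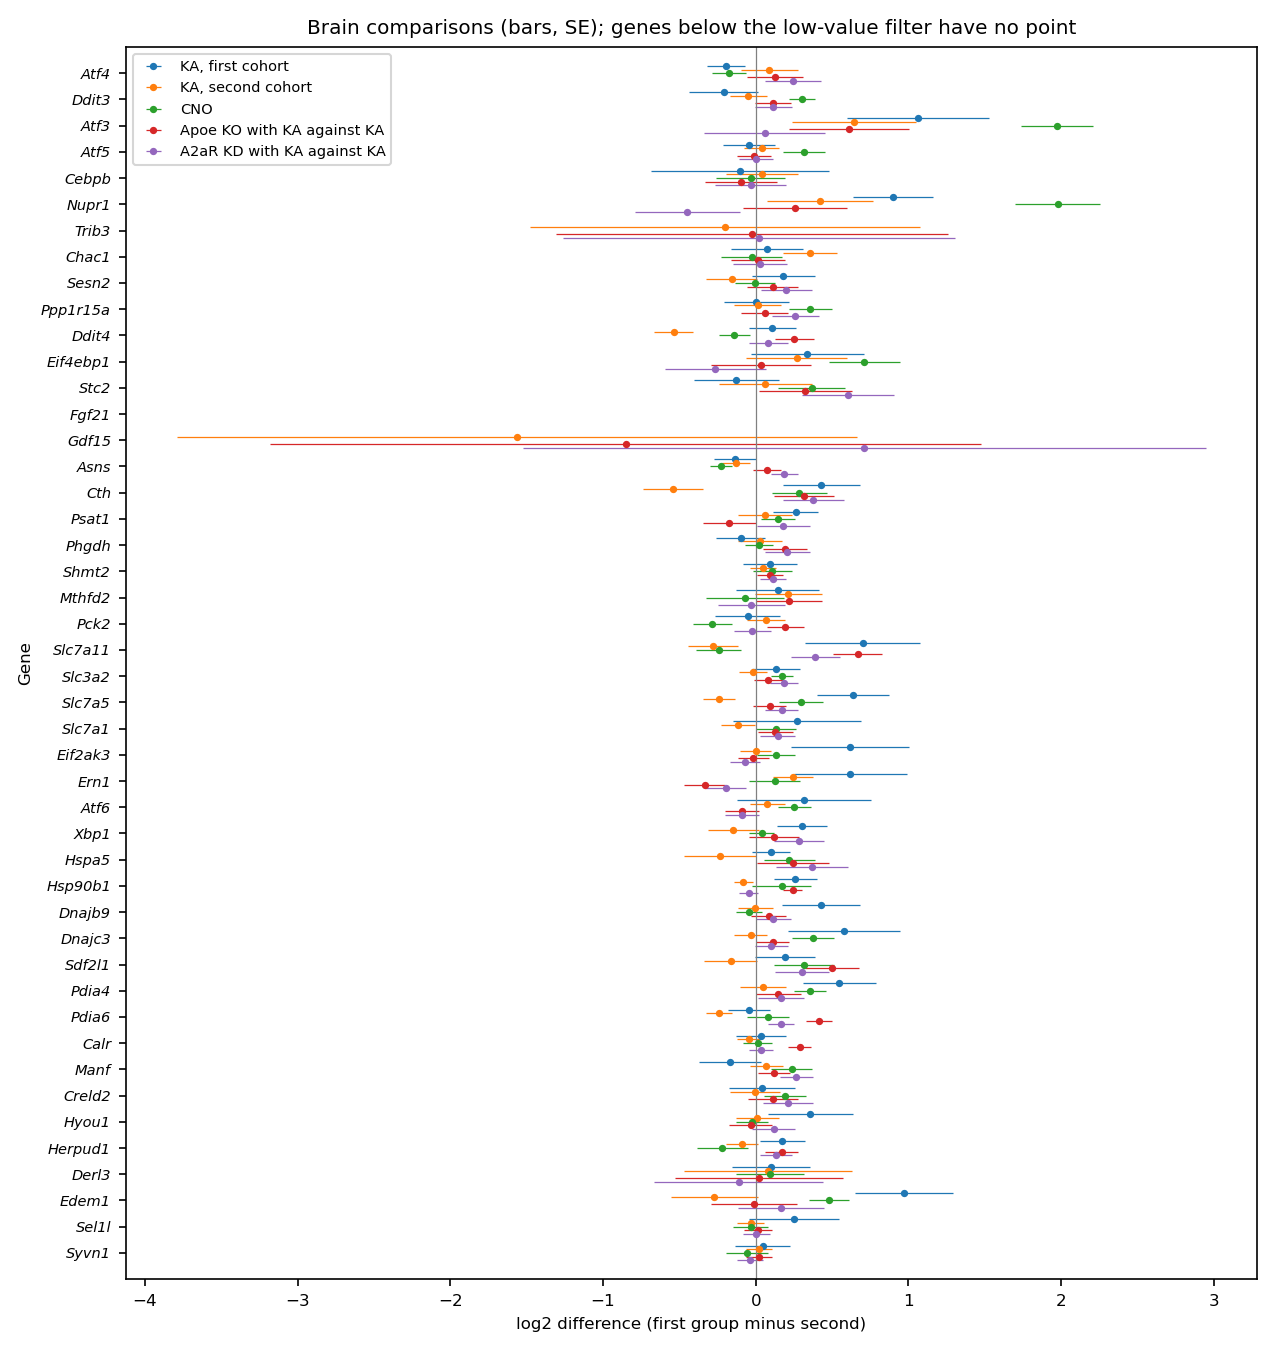
Each row is 1 gene and each point its log2 difference in 1 of 5 brain comparisons, with SE. Most points lie within 1 of 0, Atf3 and Nupr1 with CNO lie at 1.97 and 1.98, and the widest bars belong to genes near 0 TPM such as Gdf15 and Trib3.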

How the data were processed

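RNA-seq of 25 brain and 27 astrocyte libraries was used as 4 tables. The authors deposited TPM in each table and, for the second KA cohort, read counts beside it; for the other tables the unit TPM was inferred from deposited values that sum to 978422 to 995304 per library. Per the submitters' processing notes the tools were HISAT2, StringTie and RSEM with mm10, with no role or version given. The genes and lists were chosen with earlier results of these data known.

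TPM tables were tested with limma 3.58.1 (R 4.3.3) on log2(TPM + 1), with an intensity trend, over genes that reached 1 TPM in 3 or more libraries. All 9 astrocyte groups shared a fit. Counts were tested with edgeR 4.0.16 (quasi-likelihood, TMM, filterByExpr), where the SE is the log2 difference divided by the square root of F. Adjusted p-values are Benjamini-Hochberg over all genes tested, with a threshold of 0.05. A 95% interval is per gene and unadjusted. The scripts were tested on simulated data.

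The text names members past the threshold, the 12 with the largest change where more passed, and always Atf4, Ddit3, Hspa5 and Xbp1; further members are named after their values were seen, to describe their role. From each pathway list at most the 3 genes with the smallest p were eligible. Alternatives were median-ratio scaling, a pseudocount of 0.1, no filter, only the groups compared, DESeq2 1.42.0 size factors and Wald test, a replicate block, each library left out, both libraries titled mix left out, and, chosen after seeing the data, removal of a transcript length trend. No label pairs the CNO and untreated brains. The deviations of each CNO library correlated best with those of the untreated library of the same number, at 0.232, 0.186 and 0.111. A second row for Ddit3 was kept apart and is described in the closing section.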

Additional observations from a re-analysis of the deposited data

Results flagged for a closer look

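In the second KA cohort, 2 of 46 members had 1 of 4 KA libraries marked as far from the other 3, where chance alone marks about 1 in 20. Both were in replicate 4. Sel1l was at 83.8 TPM there and at 70.6, 71.5 and 69.6 TPM in the others. Gdf15 was at 0.218 TPM there and at 0 in the others. A single value above 0 of any size is marked in that case, so the rate does not apply to Gdf15.

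The change with neuronal medium differed between knockout and wild type, by the interaction test, for Atf5 (0.58), Cebpb (-1.48), Trib3 (0.72), Sesn2 (0.36), Ddit4 (0.50), Gdf15 (0.56), Cth (1.57), Psat1 (0.31), Shmt2 (-0.39), Pck2 (-0.41), Slc3a2 (0.68) and Derl3 (-0.96), each a log2 difference of knockout minus wild type. These and the genes below are the named ones (the 12 with the largest difference past the threshold, or Atf4, Ddit3, Hspa5 and Xbp1 where they passed) among 13 members that passed for neuronal medium, 27 for oleic acid and 29 for palmitic acid. For oleic acid the same measure was marked for Atf4 (-1.06), Ddit3 (-0.47), Atf3 (-1.63), Atf5 (0.75), Nupr1 (1.41), Trib3 (-0.67), Chac1 (-2.40), Sesn2 (-0.69), Ppp1r15a (-1.18), Cth (2.20), Mthfd2 (-0.98), Ern1 (-0.80), Xbp1 (-0.63) and Derl3 (-1.63). For palmitic acid it was marked for Atf4 (-0.61), Ddit3 (0.91), Cebpb (-1.18), Ddit4 (2.50), Gdf15 (-1.14), Cth (1.24), Slc3a2 (1.12), Hspa5 (0.89), Sdf2l1 (1.67), Pdia4 (1.50), Calr (1.16), Creld2 (1.50), Hyou1 (1.23), Herpud1 (1.23) and Syvn1 (1.53).

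A second row for Ddit3, under another gene identifier, was outside the comparisons. It held 45.2 TPM in the second CNO library and 0 in the other 5 libraries of that set, while the main row held 53, 54.1 and 50 TPM with CNO.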

How the results depend on the processing

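Counts of members past the threshold stayed within 1.5 times under 106 of 110 other settings and in 128 of 129 refits without 1 library. The exceptions were the CNO comparison (2 members, 1 without the filter on low values and 1 to 2 with a library left out, 1 without the third untreated library), Apoe knockout neuronal medium (0, and 1 with only the groups compared fitted), Apoe knockout with KA (0, and 3 with the DESeq2 Wald test) and KA in the second cohort (0, and 1 with that test); the cause was not tested. Of 4791 refits of 347 called member values, 4500 kept their call, 290 lost it and 1 changed sign, that of Pck2 in the palmitic acid interaction with median-ratio scaling (0.03). With the replicate block the CNO count stayed at 2. Each CNO library there correlated best with the untreated one of its own number, but no label states a pairing. In these other comparisons not every library had such a match: the block gave 45 and 43 members with palmitic acid in wild type and knockout. It gave 34 between untreated genotypes and 22 with neuronal medium in the knockout, all within 1.5 times. No paired analysis was possible for the libraries labelled A2aR knockdown because that group shares only 1 replicate number with the KA group. Without both libraries titled mix, 43 members passed with palmitic acid in the knockout and 26 in the interaction. With the length trend removed, the palmitic acid interaction had 28 members with a higher signed change in the knockout and 3 with a lower one. Depth is unknown for the TPM tables, so counting error could not be given there, and members near 1 TPM such as Fgf21 are the least precise.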
